A study of Saccharomyces cerevisiae with 59 samples.

Results

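The 56 genes for the proteins of the small (40S) subunit of the cytosolic ribosome of Saccharomyces cerevisiae were followed across libraries made from 6 amounts of RNA. They were taken as every gene whose symbol in the R64 annotation of the yeast genome is RPS followed by a number, and they are 56 of the 6420 genes listed in each file. The members fall into 32 families, RPS0 to RPS31. In 24 families there are 2 gene copies, named A and B, and 8 families (RPS2, RPS3, RPS20 and RPS31 among them) have 1 gene. All 56 members were found in the files. An intron splits the coding sequence of 36 members and of none of the other 20. Coding lengths run from 171 nucleotides (nt) for RPS29A and RPS29B to 786 nt for RPS4A and RPS4B.

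Bulk RNA came from spheroplasts, cells whose wall had been digested with Zymolyase, of 1 monoclone of the strain S288C under amino acid starvation (AAS) in sorbitol-containing medium lacking amino acids. The labels and the study's methods give different ranges for the starvation time. The RNA was diluted, with 10 libraries at each of 5, 10 and 20 pg, 7 libraries of 100 pg, 8 of 1 ng and 9 of 10 ng. Libraries were made with the protocol the study used for single cells, to see how the genes detected depend on the input. Every group shares the strain and the starvation, and there is no unstarved group here. The protocol was shared except for the spike-ins, control RNAs added to each library. By the study's methods their concentration rose in proportion to the input, so values per spike-in count are per amount of input RNA. The methods also name alternative library kits and sequencers without saying which library had which. For 5 libraries, named H6P, the labels give no amount, so they entered no comparison and are given only by their range. A table of the study lists an amount and another batch for them, which was not used here, so a difference between them and the other libraries cannot be told apart from that batch. Nothing in the labels says that libraries of 1 amount came from separate cultures, so p-values below refer to the scatter among these libraries alone, and that scatter may be technical.

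The 40S subunit reads the messenger RNA: its proteins and its ribosomal RNA form a head, a body and a platform around the channel through which the message runs, and initiation factors assemble on it before the large (60S) subunit joins. In yeast the genes for ribosomal proteins are transcribed together in fast growth, under the target of rapamycin and protein kinase A pathways, and are repressed together when nutrients run out. Many of the genes are held in pairs left by an ancient duplication of the whole genome, and both copies of a pair encode the same or nearly the same protein, so a read can be given to a copy only where the copies differ in sequence.

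The coding sequences of 4 pairs are shown because the results below turn on the counts of their copies. The sequences were read from the RefSeq copy of the R64 genome, which is also the build named for the files. They are printed in the direction of the gene with introns removed, and capitals mark the positions at which A and B differ. RPS30A and RPS30B, whose protein sits in the body of the subunit, are shown whole (192 nt, 9 differing positions). RPS30A lies at chrXII:712537-713158, minus strand, and RPS30B at chrXV:678191-678793, minus strand. The coding sequence of each is split by an intron.
RPS30A: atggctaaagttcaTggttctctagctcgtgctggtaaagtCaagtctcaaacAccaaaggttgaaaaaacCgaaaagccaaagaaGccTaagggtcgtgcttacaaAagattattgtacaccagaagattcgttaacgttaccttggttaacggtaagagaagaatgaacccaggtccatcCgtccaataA
RPS30B: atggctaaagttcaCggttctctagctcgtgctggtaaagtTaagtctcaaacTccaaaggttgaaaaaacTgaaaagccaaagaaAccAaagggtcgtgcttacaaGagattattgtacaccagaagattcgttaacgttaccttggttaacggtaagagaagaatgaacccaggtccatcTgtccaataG
The zinc-binding head protein Rps29 is encoded by RPS29A (chrXII:898651-898821, plus strand) and RPS29B (chrIV:340628-340798, minus strand), the shortest members, which have no intron and differ at 14 of 171 positions.
RPS29A: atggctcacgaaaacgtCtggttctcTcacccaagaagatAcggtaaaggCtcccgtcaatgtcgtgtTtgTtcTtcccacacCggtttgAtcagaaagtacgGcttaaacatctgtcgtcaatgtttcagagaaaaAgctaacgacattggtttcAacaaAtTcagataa
RPS29B: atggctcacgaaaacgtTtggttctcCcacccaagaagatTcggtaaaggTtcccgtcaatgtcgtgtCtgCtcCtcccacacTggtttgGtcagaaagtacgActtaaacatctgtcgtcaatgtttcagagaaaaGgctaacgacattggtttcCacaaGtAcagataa
For RPS14, a platform protein, a stretch with 15 of the pair's 33 differing positions is shown. It covers coding bases 22 to 141 of RPS14A (chrIII:177773-177892, minus strand) and 25 to 144 of RPS14B (chrX:74219-74338, plus strand).
RPS14A: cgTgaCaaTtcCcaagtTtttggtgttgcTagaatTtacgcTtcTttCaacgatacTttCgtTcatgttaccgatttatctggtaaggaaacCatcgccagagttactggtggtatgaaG
RPS14B: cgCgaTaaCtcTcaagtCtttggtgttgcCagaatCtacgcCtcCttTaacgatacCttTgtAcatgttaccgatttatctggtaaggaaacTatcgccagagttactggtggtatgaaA
Coding bases 145 to 264 of RPS4A (chrX:702549-702668, minus strand) and RPS4B (chrVIII:504998-505117, minus strand), which encode a protein of the body, hold 5 of the pair's 15 differing positions.
RPS4A: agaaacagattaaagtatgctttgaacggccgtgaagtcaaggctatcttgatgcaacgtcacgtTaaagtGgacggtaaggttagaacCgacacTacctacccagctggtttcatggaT
RPS4B: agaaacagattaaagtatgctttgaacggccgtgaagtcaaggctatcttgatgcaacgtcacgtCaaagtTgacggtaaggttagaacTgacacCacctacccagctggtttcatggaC

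Only reads that mapped to 1 place were counted, so the share of 100-base windows (the read length) of a coding sequence that occur once in the genome limits what a copy could be given. This share was 100% for 48 members. It was 86.7% for RPS4A and RPS4B, 82.8% for RPS24A and RPS24B and 46.6% for RPS6A and RPS6B, it was lower still for the remaining pair, and the counts of all 8 members below 100% are uncertain. No coding sequence of a member overlapped another annotated gene, and the small nucleolar RNA gene SNR44 lies inside the intron of RPS22B.

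The 54 libraries with an amount held 290434 to 2452562 gene counts each (reads assigned to genes), and levels are given as CPM, gene counts scaled to a common total of 1000000 in every library. CPM is a share of the gene counts in a library, so it does not give the absolute amount of a transcript. Markers of alpha cells, the mating type of S288C, summed to 208001 counts over these libraries and markers of a cells to 560. A few libraries stood apart from others of their amount: replicates 5 and 9 of 1 ng, replicate 5 of 10 ng, replicate 10 of 100 pg and replicates 1 and 5 of 5 pg, and calls and RPS shares are given with and without them. At 5, 10, 20 and 100 pg the libraries numbered 1 to 4 gave lower mean RPS shares than those with higher numbers, and the shares within these sets are given after the pooled ones. The labels do not say what the numbers stand for.

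At 10 ng the order of the members by CPM per kb of coding length was led by RPS31, which encodes ubiquitin joined to a protein of the head, with a mean of 6793 CPM per kb. RPS31 had 1275 CPM in the lowest library, 3304 in the median and 3728 in the highest (n = 9). RPS14A followed with 5033 CPM per kb and 1115, 2189 and 2561 CPM. RPS23B and RPS23A, copies for a protein of the decoding centre, reached 3939.5 and 3802 CPM per kb, RPS16A, whose head protein reaches toward the tRNA sites, 3718, and RPS30A 3312. The ranges of these neighbours overlapped: 1275 to 2506 CPM for RPS23B and 1113 to 2499 CPM for RPS23A. At the other end stood RPS19A with 71.2 CPM per kb, RPS27B with 33.6 and RPS27A with 26.5. RPS19 is a head protein needed for assembly of the subunit, and RPS27 binds zinc. RPS27A had between 0 and 11.6 CPM in the 9 libraries and RPS27B between 2.17 and 20.7.

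**Figure D1:**
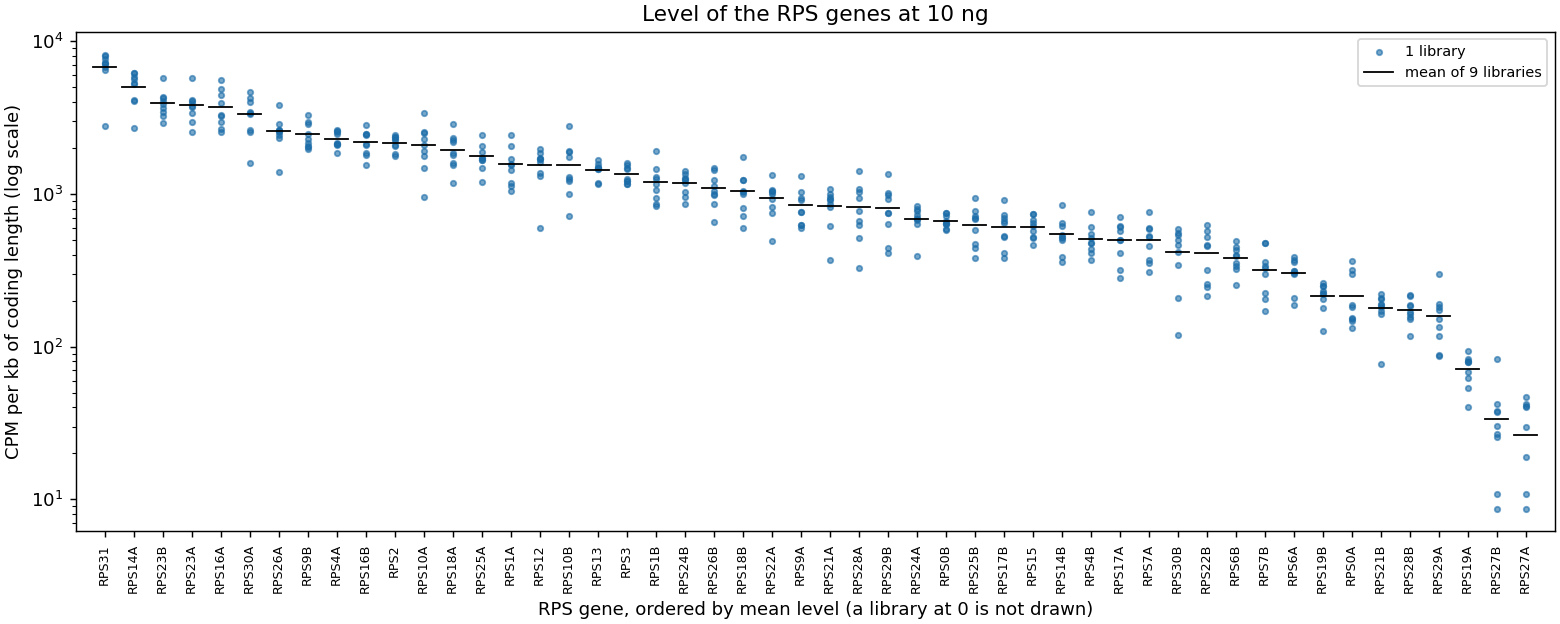
Level of 50 RPS genes at 10 ng in CPM per kb of coding length (log axis), 1 point per library and a bar at the mean of 9 libraries, with genes ordered by the mean. RPS31 leads at 6793 CPM per kb, and RPS19A, RPS27B and RPS27A close the row below 100 CPM per kb; RPS20 is not drawn because it had no count.

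RPS20, which encodes an essential head protein, stood out: it had 0 counts in all 54 libraries with an amount. A count of 0 allows up to 3 counts, or 1.22 to 10.3 CPM by library. Pooled, these libraries held 69986280 gene counts, so the limit over all of them is far lower. The 5 H6P libraries had between 9 and 66 counts of RPS20. It was not tested in any comparison, so 55 members could be tested at most.

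Summed over the 56 genes, the RPS share of gene counts had medians under 1% from 5 to 100 pg, with the lowest at 100 pg, and higher medians at 1 and 10 ng. It ran from 0.336% to 1.47% with a median of 0.978% at 5 pg, from 0.412% to 1.83% (median 0.875%) at 10 pg and from 0.335% to 1.08% (median 0.817%) at 20 pg. At 100 pg it ran from 0.326% to 1.33% (median 0.418%), and replicate 10 was the highest. The libraries of 1 ng gave 0.679% to 2.13% (median 1.83%), where replicates 9 (0.679%) and 5 (0.776%) lay below the other 6, which held 1.61% to 2.13%. At 10 ng the share was 2.43% to 4.22% (median 3.61%), with replicate 5 lowest, and every library lay above every library of the other amounts. As mean ± SD, 100 pg libraries had 0.578% ± 0.350 (n = 7), 1 ng libraries 1.61% ± 0.570 (n = 8), and 10 ng libraries 3.52% ± 0.532 (n = 9). Without replicate 10 the mean at 100 pg was 0.453% ± 0.121 (n = 6), without replicates 5 and 9 that of 1 ng was 1.91% ± 0.191 (n = 6), and without replicate 5 that of 10 ng was 3.65% ± 0.364 (n = 8). At 5 pg it was 0.920% ± 0.397 (n = 10) and, without replicates 1 and 5, 1.01% ± 0.40 (n = 8).

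Within the sets of library numbers, both sets had their highest mean at 10 ng: 3.62% ± 0.472 (n = 4) for numbers 1 to 4 and 3.43% ± 0.616 (n = 5) above 4. At 1 ng the means were 1.92% ± 0.115 (n = 4) and 1.30% ± 0.696 (n = 4), and at 100 pg 0.430% ± 0.0528 (n = 4) and 0.776% ± 0.512 (n = 3). Without replicate 10 of 100 pg the latter was 0.498% ± 0.243 (n = 2), and without replicates 5 and 9 of 1 ng the mean above 4 was 1.87% ± 0.372 (n = 2). At 5 pg the libraries numbered 1 to 4 held 0.577% ± 0.211 (n = 4) and those above 4 held 1.15% ± 0.318 (n = 6). At 10 pg the values were 0.473% ± 0.0836 (n = 4) and 1.27% ± 0.402 (n = 6), and at 20 pg 0.576% ± 0.205 (n = 4) and 0.904% ± 0.235 (n = 6). By the ratio of their means the sets lay furthest apart at 10 pg. Glycolysis genes took 24.4% ± 8.80 (n = 10) of the gene counts in the 5 pg libraries, 44.0% ± 14.7 (n = 7) in those of 100 pg, and 36.2% ± 4.99 (n = 9) in those of 10 ng. The number sets lay apart in this share at 20 and 100 pg. At 100 pg it was 52.8% to 58.1% for numbers 1 to 4 and 25.9% to 30.8% above 4. At 20 pg it was 42.7% to 48.3% and 22.0% to 25.9%. At the other amounts the ranges of the sets overlapped. Outside the glycolysis genes the RPS share was 1.19% at 5 pg, 1.02% at 100 pg and 5.54% at 10 ng on average. At 20 pg it ran from 0.637% to 1.47% for numbers 1 to 4 and from 0.609% to 1.39% above 4. At 100 pg it ran from 0.814% to 1.21% and from 0.440% to 1.86%. The part of the glycolysis share in the RPS share and in the difference between the sets was not tested.

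The 82 genes of the large subunit and its stalk (RPL and RPP) had their lowest mean at 100 pg too, 1.65% ± 0.599 (n = 7). Their share was 3.24% ± 0.892 (n = 8) in 1 ng libraries, and 10 ng libraries had 5.48% ± 0.541 (n = 9). The ratio of RPS to RPL counts was 0.334 ± 0.0703 (n = 7) at 100 pg, between 0.268 and 0.461, and 0.639 ± 0.0537 (n = 9) at 10 ng, between 0.528 and 0.730. The ranges of 100 pg and 10 ng do not overlap. At 5 pg the ratio ran from 0.251 to 1.002, at 10 pg from 0.293 to 0.657, at 20 pg from 0.292 to 0.490 and at 1 ng from 0.379 to 0.541. The ranges of 5 pg, 10 pg and 1 ng overlapped that of 10 ng. Both lists were chosen with earlier results of these data known, and sums over members were given no test.

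**Figure D2:**
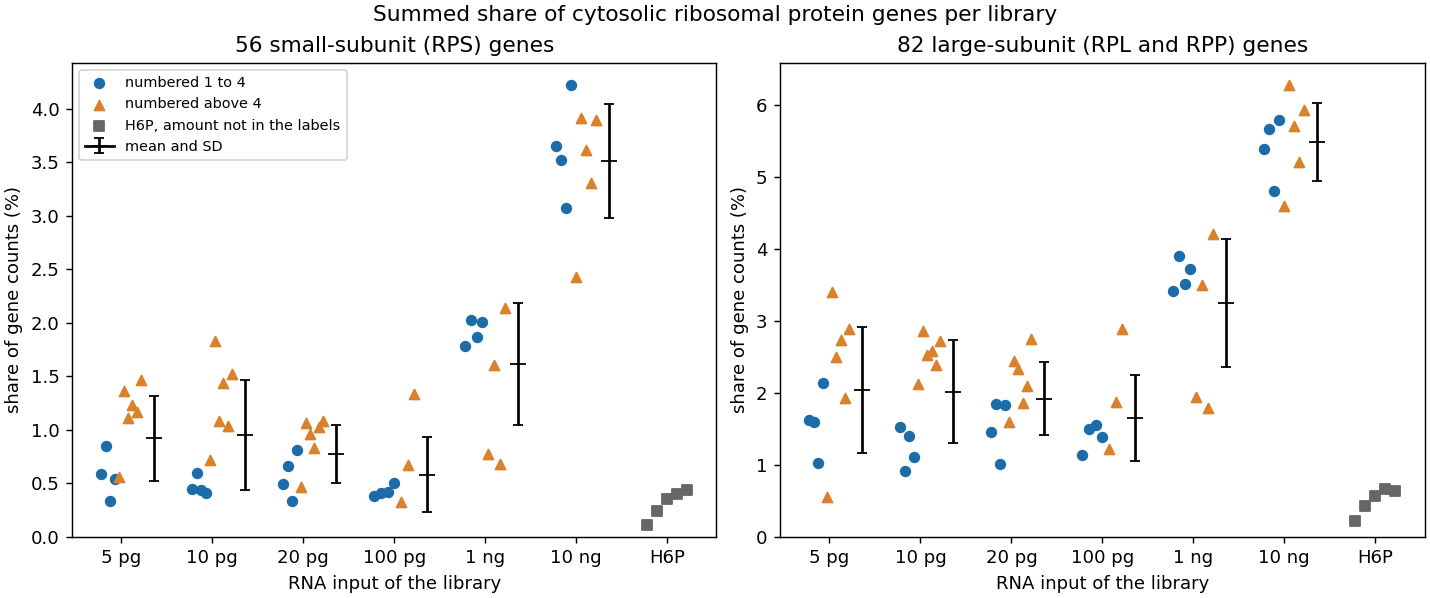
Share of gene counts (%) of the 56 RPS genes (left) and of the 82 RPL and RPP genes (right), 1 point per library by RNA input, circles for libraries numbered 1 to 4, triangles for those above 4, squares for H6P, and bars for mean and SD. The 9 libraries of 10 ng sit between 2.43% and 4.22% on the left, above the libraries of all other amounts, and the H6P libraries sit between 0.110% and 0.433%.

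More single members were detected at 1 and 10 ng than below. With at least 5 counts taken as detected, 5 pg libraries had 40.7 ± 7.97 (n = 10) members detected, 10 pg libraries 45.4 ± 6.28 (n = 10), and 20 pg libraries 44.2 ± 5.31 (n = 10). With 100 pg the number was 41.7 ± 7.20 (n = 7), with 1 ng 53.4 ± 2.00 (n = 8), and with 10 ng 54.3 ± 0.866 (n = 9). Thinned to 290000 gene counts per library, which puts all libraries at 1 depth, the means were 32.5, 38.9, 35.6, 32.6, 47.9 and 52.9 in the same order. The spread between libraries of an amount was wide for single genes. The median coefficient of variation over the 55 members with counts was 134% at 5 pg, 95.5% at 10 pg, 75.9% at 20 pg, 87.6% at 100 pg, 51.9% at 1 ng and 24.0% at 10 ng. A value of 0 was found in 12.7% of the gene and library combinations at 5 pg and in 0.202% at 10 ng. In the 5 pg libraries 1 member could hold up to 30.3% of all RPS counts, against 10.6% at most at 10 ng. The member with the most counts, not corrected for length, was RPS2 in all 7 libraries of 100 pg and RPS31 in 8 of 9 of 10 ng, while at 5 pg 8 different members led in at least 1 library.

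**Figure D3:**
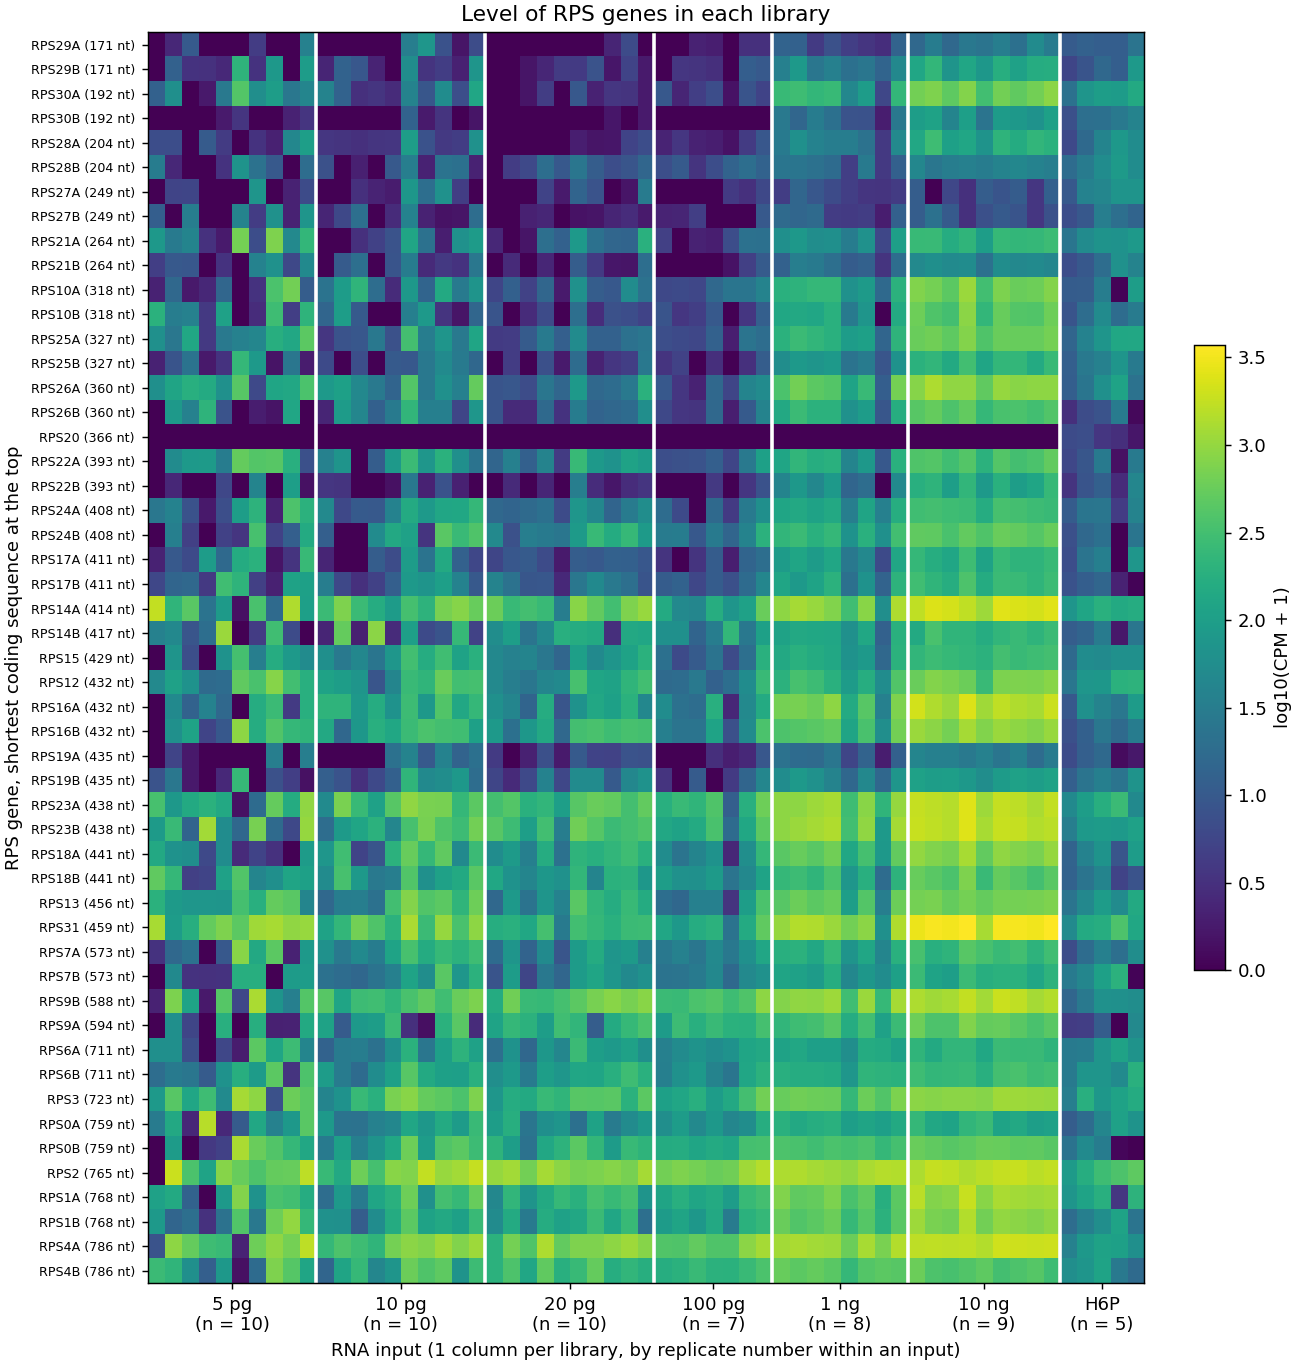
Level of 51 RPS genes (rows, shortest coding sequence at the top) in each library (columns, grouped by RNA input), as log10(CPM + 1) by colour. Columns of 10 ng are even and bright, columns of 5 pg differ from each other gene by gene, the shortest genes are dark at 20 and 100 pg, and the RPS20 row is at 0 outside H6P.

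Between 1 ng and 10 ng nearly all members were higher at 10 ng, in every part of the subunit. Of 55 members tested, 49 were higher and 0 lower at an adjusted p below 0.05 (edgeR's quasi-likelihood test, Benjamini-Hochberg over 3927 genes). Of all genes tested 15.9% were higher and 20.8% lower, and of the 1042 genes no longer than the longest member 46.6% were higher and 1.82% lower. No member was lower at an unadjusted p below 0.05 or by DESeq2 either. Fold changes are log2 values of the higher over the lower input, given relative to the median of all genes tested (-0.23 here), while SE and adjusted p refer to the value before this subtraction. The median over the members was 1.61, against 1.14 over all genes of at most 786 nt. For 18 members every 10 ng library exceeded every 1 ng library in CPM, which held for 2.72% of all genes. It held for 105 of the 1042 genes no longer than the longest member. For 0 members every 10 ng library lay below (0.713% of all genes).

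All 21 tested members of the head were higher, with a median of 1.69. RPS28A, for a protein at the mRNA exit on the head, had the largest fold change of all members, 2.77 (SE 0.45, adjusted p = 0.00058, edgeR). It had 2.89 CPM in the lowest, 31.7 in the median and 61.5 in the highest library of 1 ng, and 66.7, 158 and 289 CPM at 10 ng. No 10 ng library of RPS28A fell into the range of 1 ng. RPS10A and RPS10B, for a protein of the head next to the mRNA entry, rose by 2.44 (SE 0.46, adjusted p = 0.00175, edgeR) and 2.54 (SE 0.58, adjusted p = 0.0053, edgeR). RPS10A had 15.4 to 241 CPM at 1 ng and 303 to 1080 CPM at 10 ng. The zinc-binding pair RPS29A and RPS29B rose by 2.47 (SE 0.47) and 2.41 (SE 0.39), from means of 6.93 and 34.9 CPM to 27.1 and 138 CPM.

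In the body and platform 28 of 34 members were higher and none lower, with a median of 1.42. Of these RPS30B had the largest fold change, 2.63 (SE 0.52, adjusted p = 0.00223, edgeR): its CPM ran from 0.962 to 30.8 (median 17.2) at 1 ng and from 22.9 to 114 (median 89.1) at 10 ng, so the ranges overlap. Among the called members the smallest fold changes belonged to long genes. RPS2, for a protein at the mRNA entry, had 0.80 (SE 0.21, adjusted p = 0.037, edgeR), RPS0B, for a protein needed to mature the subunit's RNA, 1.02 (SE 0.20), RPS4A 1.08 (SE 0.26), RPS9B and RPS9A, whose protein affects accuracy of decoding, 1.14 (SE 0.34) and 1.24 (SE 0.31), and RPS6B, whose protein is phosphorylated when the target of rapamycin pathway is active, 1.16 (SE 0.25). RPS2 ran from 980 to 1502 CPM at 1 ng and from 1347 to 1857 CPM at 10 ng, which overlap.

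In all, 6 of the tested members did not pass: RPS0A, RPS4B, RPS13, RPS23B, RPS27A and RPS27B. The copies of RPS4 gave different values: RPS4A had means of 1107 and 1796 CPM at 1 and 10 ng, and RPS4B had 447 and 401 CPM, a relative fold change of 0.23 (SE 0.24, adjusted p = 0.999, edgeR). RPS4B lay above its 1 ng mean in 2 of 9 libraries of 10 ng. RPS13, which lies where the body meets the large subunit, had 1.03 (SE 0.42, adjusted p = 0.134, edgeR) and lay above its 1 ng mean in 9 of 9 libraries.

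Without 1 ng replicate 5 the count of higher members was 44, without 1 ng replicate 9 it was 47, without both it was 46, and without 10 ng replicate 5 it was 50. The calls of RPS2 and RPS9B were lost without either of the 1 ng replicates (adjusted p = 0.069 and 0.0636 without replicate 5, 0.109 and 0.0633 without replicate 9, edgeR). Among libraries numbered 1 to 4 there were 45 higher members, and among those above 4, where both low 1 ng libraries lie, there were 3. In that set only 26 of all 4598 genes tested passed as higher, the members' median relative fold change was 2.21 against 1.61 over all libraries, and 48 members were higher at an unadjusted p below 0.05. Scaled to the spike-in counts, 34 members were higher and RPS2 had a fold change of -0.14 before subtraction (adjusted p = 0.745, edgeR).

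From 100 pg to 1 ng, 34 of 55 members were higher at 1 ng and 0 lower by edgeR. None was lower at an unadjusted p below 0.05 or by DESeq2, which called 37 higher. Of the 4670 genes tested 3.43% were higher and 3.45% lower, and of the 1099 genes no longer than the longest member 13.9% were higher and 2% lower. The members' median was 2.44, relative to a median of all genes of -0.12, against 0.77 over genes of at most 786 nt. This comparison shares the 1 ng libraries with the one above. Only RPS29B and RPS30B had every 1 ng library above every 100 pg library (0.471% of all genes), and 0 members had every 1 ng library below (0.107%). Of the 1099 genes no longer than the longest member, 13 had every 1 ng library above. Some of the 55 members met the filter on low counts only with the help of the 1 ng libraries. RPS19A, RPS22B, RPS25B, RPS28A, RPS29A, RPS29B and RPS30B were among them. Such members could hardly come out lower, so they give no support for the direction.

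The largest value belonged to RPS30B, which had 0 counts in all 7 libraries of 100 pg and 117 counts over the 8 libraries of 1 ng. Against a floor of 3 counts over the group, its mean of 16.6 CPM was at least 48.0-fold higher (adjusted p = 0.00167, edgeR). RPS30B passed the filter on low counts only through the 1 ng libraries, where it was high. Its direction was therefore fixed by the filter, and this p gives no support for it. RPS30A had 0.500 to 8.63 CPM (median 4.16) at 100 pg and 4.81 to 293 CPM (median 233) at 1 ng, a fold change of 5.40 (SE 0.84, adjusted p = 0.000525, edgeR). RPS26A, for a protein that touches the message just upstream of the start codon, followed with 4.98 (SE 0.74), from 1.21 to 52.0 CPM (median 8.63) to 10.6 to 662 CPM (median 384). RPS22B had 4.97 (SE 1.07), RPS25B, for a head protein used by viral entry sites, 4.53 (SE 0.85), and RPS10B 4.40 (SE 0.95). RPS22B was at 0 in 4 of 7 libraries of 100 pg, and its median at 1 ng was 42.0 CPM. RPS22B and RPS25B did not meet the filter through the 100 pg libraries alone. Their direction was thus fixed in part by the filter, and their calls give no support for it.

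Among the called members with the smallest fold changes were RPS3 with 1.55 (SE 0.38), RPS1A with 1.60 (SE 0.41), RPS1B with 1.78 (SE 0.45), RPS7A with 1.82 (SE 0.49) and RPS23B with 2.20 (SE 0.63). RPS3 lines the mRNA entry on the head, RPS1 belongs to the platform, and RPS7 to the body. RPS3 had 92.3 to 639 CPM (median 141) at 100 pg and 234 to 741 CPM (median 578) at 1 ng, so its ranges overlap. In the head 17 of 21 members were higher, and in the body and platform 17 of 34.

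The count of higher members was 37 without 1 ng replicate 5, 40 without 1 ng replicate 9, 45 without both and 34 without 100 pg replicate 10, where RPS23B was lost (adjusted p = 0.0556, edgeR) and another member gained. It was 45 among libraries numbered 1 to 4 and 0 among those above 4, where 3 libraries met 4. In that set 0 of all 4946 genes tested passed in edgeR, while the members' median relative fold change was 1.87 and 24 members were higher at an unadjusted p below 0.05. With scaling to the spike-in counts only RPS30A and RPS30B passed.

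**Figure D4:**
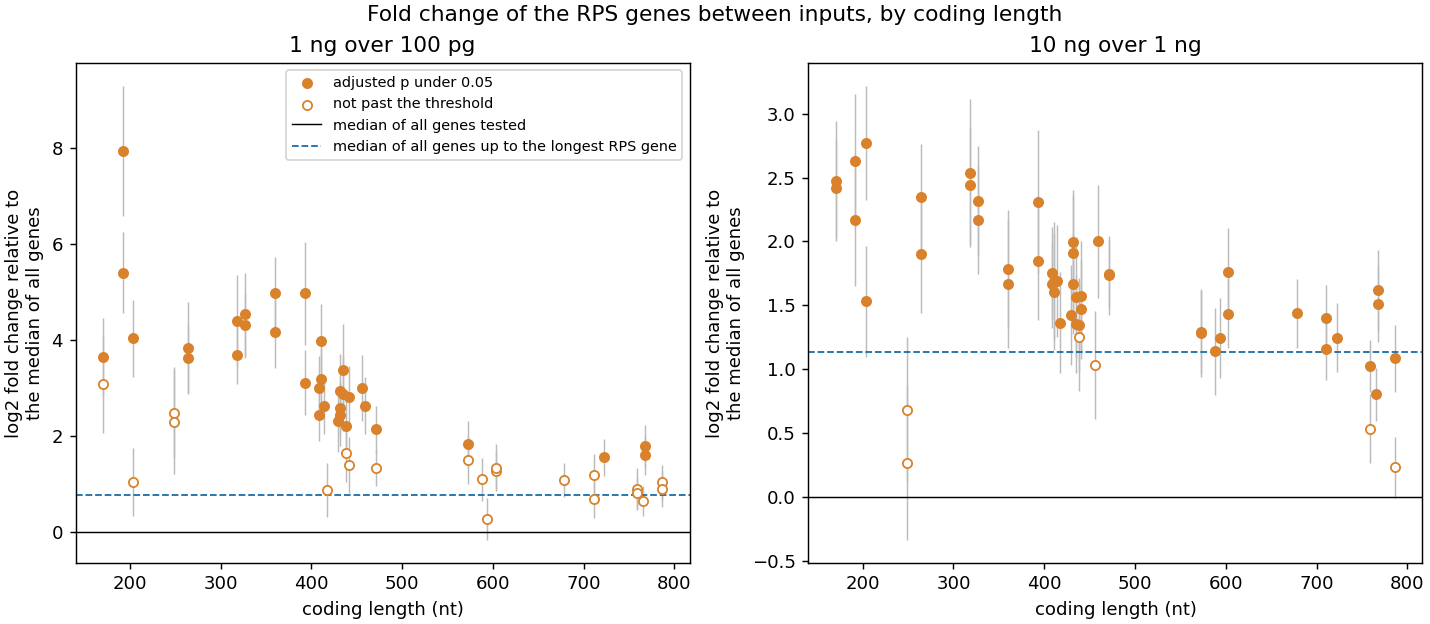
Log2 fold change of 55 RPS genes relative to the median of all genes tested, against coding length in nt, for 1 ng over 100 pg (left) and 10 ng over 1 ng (right); filled points passed an adjusted p of 0.05, bars are SE, and the dashed line is the median of all genes of at most 786 nt. Most short members sit high in both panels, the RPS27 pair and RPS28B sit lower, and RPS30B on the left rests on a group at 0.

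In both of these comparisons shorter members tended to have larger fold changes. The 14 members of 171 to 327 nt had a median of 2.33 from 1 to 10 ng and 3.76 from 100 pg to 1 ng, and 12 and 10 of them were higher. The middle class of 360 to 471 nt (24 tested) had medians of 1.67 and 2.72, with 22 and 20 higher. The 17 members of 573 to 786 nt had medians of 1.24 and 1.09, with 15 and 4 higher. Across the 55 members Spearman's correlation of fold change with length was -0.65 from 1 to 10 ng and -0.76 from 100 pg to 1 ng. Across all genes tested it was -0.75 (3924 genes) and -0.37 (4660 genes). The points share libraries, so these are descriptions. Of all RPS counts the short class made up 9.26% ± 1.34 (n = 9) in 10 ng libraries, 1.16% ± 0.367 (n = 7) in those of 100 pg, 1.2% ± 0.958 (n = 10) in those of 20 pg, and 6.94% ± 4.72 (n = 10) in those of 5 pg. The short class thus had its lowest shares at 20 and 100 pg. By introns, 30 of 36 members with an intron and 19 of 19 tested without one were higher from 1 to 10 ng, with medians of 1.52 and 1.76, and intron-containing genes held 58.3% ± 1.83 (n = 9) of RPS counts at 10 ng and 56.2% ± 6.74 (n = 10) at 5 pg.

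From 5 to 100 pg no member passed the test. From 20 to 100 pg, 0 of 51 tested members were called in either direction by edgeR (0% of 4546 genes in either direction), 0 had an unadjusted p below 0.05 and DESeq2 called 0. Every 100 pg library lay above every 20 pg library for 0 members (0.022% of all genes). RPS20, RPS22B, RPS27B, RPS29A and RPS30B were left out there by the filter on low counts. From 10 to 20 pg it was 0 of 52 (0.0456% of 4388 genes higher and 0% lower), with 4 lower at an unadjusted p below 0.05 and 1 call by DESeq2, RPS30A, which was lower at 20 pg. RPS30A ran from 1.79 to 128 CPM (median 10.2) at 10 pg and from 0 to 8.66 CPM (median 1.02) at 20 pg. From 5 to 10 pg it was 0 of 55 (0% of 3443 genes in either direction), none at an unadjusted p below 0.05 and none by DESeq2. The members' medians were 0.39, -0.41 and -0.22 relative to the medians of all genes, which were -0.12, 0.04 and -0.12. From 10 to 20 pg the short class had a median of -1.79 and the long class 0.05, and Spearman's correlation of fold change with length over 52 members was 0.65, against 0.06 over 4380 genes. RPS20, RPS22B, RPS27B and RPS30B were left out there by the filter. A miss of the threshold does not show that levels were alike.

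The ends of the series, 5 pg and 10 ng, were compared in the same way, sharing their libraries with the comparisons above. Only RPS16A and RPS30B of 55 members were higher at 10 ng (7.62% of 3492 genes) and none lower (23% of all genes), with 2 lower at an unadjusted p below 0.05 and 1 lower by DESeq2. Of the 989 genes of at most 786 nt 12.7% were higher and 7.28% lower. RPS16A had 0 to 270 CPM (median 26.2) at 5 pg and 1090.2 to 2412 CPM (median 1415) at 10 ng, a relative fold change of 4.91 (SE 1.07, adjusted p = 0.0252, edgeR). RPS30B was at 0 in 6 of 10 libraries of 5 pg, reached 2.59 CPM at most there, and had a fold change of 7.39 (SE 1.28, adjusted p = 0.0051, edgeR). It met the filter through the 10 ng libraries, of which all 9 had 5 or more counts, so this p gives no support for the direction. Every 10 ng library exceeded every 5 pg library for 10 members (5.27% of all genes): RPS1A, RPS9A, RPS16A, RPS18A, RPS23A, RPS23B, RPS24B, RPS26A, RPS26B and RPS30B. The same held for 116 of the 989 genes of at most 786 nt.

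This count depends on the scaling. The median of all genes was -1.64 with the trimmed mean of M-values (TMM), edgeR's default scaling, and the members' median relative to it was 2.44. With scaling that sets the median of all genes to 0, an alternative chosen after seeing the data, 20 members were higher, and DESeq2 gave 11 higher and 1 lower. Without 5 pg replicate 1, and without 5 pg replicate 5, it was 3. In mean CPM, 52 of the 55 members were higher at 10 ng. The exceptions were RPS0A (242 and 163 CPM at 5 pg and 10 ng), RPS27A (8.89 and 6.59) and RPS27B (21.9 and 8.36). The mean of RPS0A at 5 pg rested on 1 library of 1538 CPM, with a median of 58.5 CPM.

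The share of copy A in the counts of a pair was spread widely at low input and narrowly at 10 ng. The SD of this share between libraries had a median over the 24 pairs of 30.4 percentage points at 5 pg, 21.3 at 10 pg, 15.1 at 20 pg, 12.6 at 100 pg, 6.46 at 1 ng and 3.27 at 10 ng. The same copy held more than 50% in every library in 3 pairs at 5 pg and in 21 pairs at 10 ng. A library with counts of 1 copy alone occurred in 17 pairs at 5 pg and in 1 pair, RPS27, at 10 ng. PCR copies without molecular identifiers are not independent molecules, so limits from counts cover counting error only.

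Among the pairs with the most even split at 10 ng, RPS23A held 49.0% ± 1.58 (n = 9) and ran from 46.6% to 52.0% by library. RPS27A held 45.6% ± 19.4 (n = 9), at a median of 18 counts for the pair. At 5 pg RPS23A held 52.9% ± 39.4 (n = 10), with libraries near both ends of the scale. The least even pairs were RPS29, where A held 16.8% ± 4.59 (n = 9), RPS30 with 89.2% ± 2.45 (n = 9) and RPS14 with 90.01% ± 1.84 (n = 9). The 33 positions that separate RPS14A and RPS14B, some of them marked in the sequences above, left every 100-base window unique, as did the 9 of RPS30 and the 14 of RPS29. RPS14A stayed the larger copy in 8 of 10 libraries at 5 pg, 5 of 7 at 100 pg and 8 of 8 at 1 ng. RPS30A held more than 50% in every library with counts of the pair at 5, 10 and 100 pg, 1 ng and 10 ng, and in 6 of 7 at 20 pg, where the other library had 1 count of each copy.

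RPS28, chosen here after its values were seen, had copy B as the larger one at 20 and 100 pg and copy A at 10 ng. RPS28A held 9.30% ± 13.4 in the 9 libraries of 20 pg with counts and 20.8% ± 12.3 (n = 7) at 100 pg. It held 65.1% ± 15.6 (n = 8) in 1 ng libraries, and 80.5% ± 7.10 (n = 9) in those of 10 ng. At 100 pg the share ran from 3.85% to 40%, at a median of 9 counts for the pair, and at 1 ng from 43.9% to 89.9%, so these ranges do not overlap. At 5 and 10 pg libraries lay between 0% or 11.8% and 100%. The 2 copies have equal coding lengths of 204 nt and no intron. As background only, the protein of RPS28B is known to bind its own message and promote its decay. A link of this to the shares was not tested, and all groups hold RNA of starved cells. The pattern was seen in the data and was given no test. RPS4, also named after its values were seen, is given because part of its windows occur in both copies. RPS4A held 70.3% ± 5.02 (n = 7) of its pair with 100 pg, 70.8% ± 5.05 (n = 8) with 1 ng, and 81.6% ± 4.66 (n = 9) with 10 ng.

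**Figure D5:**
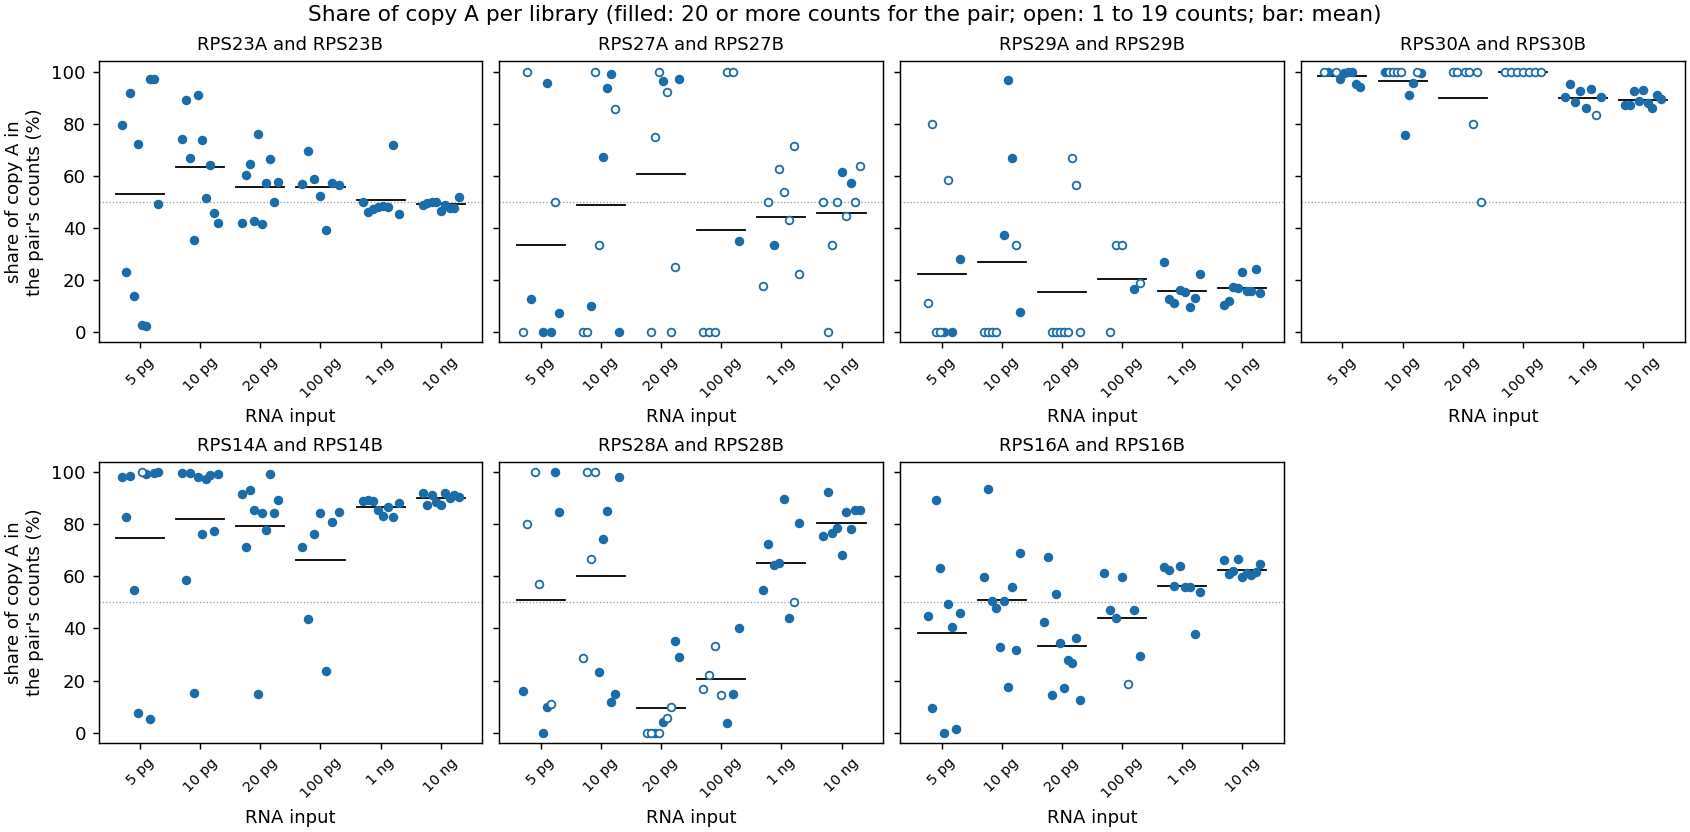
Share of copy A in the counts of a pair (%) per library by RNA input for 7 pairs, filled points for 20 or more counts, open points for 1 to 19 counts, bars for the mean. Points of RPS23, RPS14 and RPS16 close in from nearly the whole scale at 5 pg to a few points at 10 ng, RPS30A holds 50% or more of its pair in every library with counts of it, and RPS28 moves from 9.30% at 20 pg to 80.5% at 10 ng on average.

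Lists of related genes were counted beside the members for 1 to 10 ng. Of the large-subunit genes 66 of 81 were higher and 1 lower, with a median of 1.49, and from 100 pg to 1 ng 51 of 81 were higher and 0 lower. Of the small-subunit proteins of mitochondria 3 of 24 were higher and 4 lower, of the assembly factors 1 of 15 higher and 2 lower, of the components of the early processome 1 of 14 higher and 3 lower, and of the initiation factors 5 of 18 higher and 5 lower. SUI1, for the initiation factor that guards start codon choice, had 2.17 (SE 0.36, adjusted p = 0.000763, edgeR), and DED1, for a helicase of scanning, -3.42 (SE 0.75, adjusted p = 0.00169, edgeR). Among 4 tested regulators of ribosomal protein gene transcription, RAP1, which binds most of these promoters, and MRS6 were lower, with -3.36 (SE 0.69) and -1.36 (SE 0.54). RAP1 had means of 16.2 and 0.908 CPM at 1 and 10 ng, and DED1 had 24.1 and 1.55 CPM. Both 10 ng means lay below the 1.90 to 10.3 CPM that 3 counts make in a 10 ng library. Neither gene could meet the filter on low counts through the 10 ng libraries. Both were tested only through the 1 ng libraries, where they were high, so these calls give no support for the direction. The same limit applies to PWP2, UTP13 and PRP43, counted as lower above, with 10 ng means of 0.473, 1.36 and 1.31 CPM. ASC1, a 40S-bound protein often counted with the subunit though not under the RPS name, had 750.2 and 698 CPM at 1 and 10 ng, with a relative fold change of 0.37 (SE 0.19, adjusted p = 0.593, edgeR). STM1, which clamps idle ribosomes, had 0.72 (SE 0.17, adjusted p = 0.0294, edgeR). Median coding lengths were 432 nt for the tested RPS genes, 468 nt for the large-subunit genes, 951 nt for the assembly factors and 1932 nt for the regulators. The lists thus also differ in length, and the part of length in their values was not tested.

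The H6P libraries had RPS shares of 0.110% to 0.433% with a median of 0.352%, and large-subunit shares of 0.216% to 0.658%. Glycolysis genes held 5.65% to 8.70% of their counts. They were deeper, with 6407797 gene counts in the lowest, and 50 to 56 members were detected. RPS28A held 22.8% to 50.3% of its pair there and RPS14A 86.3% to 99.5%. Short members made up 13.6% to 20.6% of their RPS counts. Without an amount in the labels no comparison with the dilution series was made.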

How the data were processed

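Libraries were made by oligo-dT priming, poly(A) tailing and PCR without molecular identifiers, short cDNA was cut away on a gel, and the kit did not mark the strand, so loss of short transcripts and PCR copies can move the values. Untrimmed reads were mapped by the authors to the R64 yeast genome (STAR 2.5.2), and they deposited raw counts of uniquely mapped reads per gene, made with HTSeq. The submitters' processing notes also name RSEM 1.2.31. Each file lists 6420 genes and 92 spike-ins. The 5 summary lines that name no gene (2.84% to 12.1% of the counts of a library with an amount) and the spike-ins count in no gene total. These totals spanned 290434 to 2452562.

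Genes were matched to the reference annotation by locus tag (6019) or symbol (42), and 359 were not matched. Lengths are coding lengths. Groups came from the labels. Neighbouring amounts, and 5 pg against 10 ng, were compared by edgeR (4.0.16, quasi-likelihood test) with TMM scaling. Genes needed 5 or more counts in 20% or more of the libraries compared, with Benjamini-Hochberg adjustment over all genes tested and a threshold of 0.05. The SE was taken from the size of the fold change over the root of edgeR's F. Libraries were thinned to 290000 counts in 20 draws. No pair of libraries was identical (1711 compared). The test was checked on simulated data for 1 ng against 10 ng only, with the same scatter set for every gene. That check does not cover the wider spread at lower amounts. Alternatives were other scalings (DESeq2's size factors, spike-in counts), DESeq2 1.42.0, no filter, a replicate block, sets of library numbers and left-out libraries. The median-centred scaling and the left-out libraries were chosen after seeing the data.

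The members and gene lists were chosen with earlier results of these data known. A few members that count in the sums are not reported singly or drawn by name here, also where the rule below takes them in. Members named with values were the up to 6 with the largest and the up to 6 with the smallest fold change among those called in a comparison, the 6 with the most and the 3 with the least CPM per kb at 10 ng, the longest and shortest, those left out by the filter, and the 3 pairs each with the most and the least even split at 10 ng. ASC1 and members of the other lists that passed the threshold or were abundant were open to naming as well. R 4.3.3, Python 3.11.15, pandas 2.3.3, biopython 1.88 and matplotlib 3.10.9 were used.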

Additional observations from a re-analysis of the deposited data

Results flagged for a closer look

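In 84 sets of libraries of 1 amount and 1 summed RPS measure, the highest or lowest library was compared with the others, and 10 stood apart by Dixon's criterion, which chance gives in about 1 of 20 sets. Several of these measures share the same counts.

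Replicate 10 of 100 pg had an RPS share of 1.332% where the next library had 0.6699%, and its share for members of middle length was 0.4943% against 0.1822%. Replicate 5 of 5 pg had a ratio of RPS to RPL counts of 1.002, and the next library had 0.6013. Replicate 1 of 5 pg had 16.85% of its RPS counts in long members, against 43.61% in the next.

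Replicate 9 of 1 ng stood apart in 4 measures. Members of middle length took 16.46% of its RPS counts (next 37.7%) and long members 82.45% (next 57.61%). The count-weighted coding length of its RPS counts was 675.8 nt (next 594.5 nt), and 33.4 members were detected after thinning (next 45.8). Replicate 5 of 10 ng had 45.76% of its RPS counts in members of middle length (next 51.08%) and 47.22% in long ones (next 40.2%).

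RPS20 reached 66 counts in an H6P library, outside the compared groups, and had 0 in all libraries with an amount.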

How the results depend on the processing

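The count of RPS genes called depended most on the set of library numbers and on the scaling. From 1 to 10 ng, 3 members were called among libraries numbered above 4, and 44 to 50 with single libraries left out. From 100 pg to 1 ng, scaling to spike-in counts gave 2, libraries numbered above 4 gave 0, and leaving out single libraries gave 34 to 40, or 45 without both 1 ng replicates 5 and 9. From 10 to 20 pg DESeq2 called 1, RPS30A, which was lower at 20 pg. From 5 pg to 10 ng the count was 1 with spike-in scaling, 20 with median-centred scaling, 12 with DESeq2 (11 higher and 1 lower), 4 without a filter, 0 among libraries numbered 1 to 4 (where 0 of 3305 genes passed in edgeR and 17 members were higher at an unadjusted p below 0.05), 1 among those above 4, and 2 to 3 with single libraries left out. The cause was not tested. The fold change of RPS2 from 1 to 10 ng turned to -0.1395 with spike-in scaling (adjusted p = 0.7455, edgeR), and no other named member turned.

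With the replicate number as a block, 51 members were called from 1 to 10 ng, 46 from 100 pg to 1 ng and 4 from 5 pg to 10 ng. Correlations of libraries with the same number ran from -0.08 to 0.52, and in no comparison were all of them over 0.1, so the numbers were not taken to pair the libraries. In 20 of 51 cases a library correlated best with its own number, among them 5 of 7 from 100 pg to 1 ng and 4 of 8 from 1 to 10 ng, a hint from the data and not from the design.

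Outside the glycolysis genes the RPS share was 1.141% at 20 pg, 1.025% at 100 pg, 2.715% at 1 ng and 5.54% at 10 ng. Per spike-in count the log2 ratio of the mean RPS level, 10 ng over 5 pg, was 0.6731, against 1.934 per gene count. The spike-ins were raised with the input, so the former value is per amount of input RNA and not per library. Over all genes, 625 were higher and 816 lower from 1 to 10 ng, 187 and 861 with spike-in scaling, 499 and 1025 with DESeq2's size factors in edgeR, and 881 and 560 with median-centred scaling. From 5 pg to 10 ng, 266 were higher and 804 lower, 573 and 233 with median-centred scaling, 748 and 594 by DESeq2. At 5 pg the median member varied by 134% between libraries.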
